A study of Mus musculus with 24 samples.

Results

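The chromatin of 8 genes of the TGF-β pathway was examined in cultured mouse fibroblasts: the ligand genes Tgfb1, Tgfb2 and Tgfb3, the activin subunit gene Inhba, and the receptor genes Tgfbr1, Tgfbr2, Tgfbr3 and Acvr1. The genes had been chosen by name, and all 8 were found among the 22350 protein-coding genes annotated on chromosomes 1 to 19 and X of mm9. Each gene was given a window of its body with 10 kb on each side. The ChIP-seq peak lists of 17 of the 24 samples were used, and the other 7 samples were inputs. They covered histone H3 acetylated at lysine 27 (H3K27ac, a mark of active promoters and enhancers) in 7 lists, H3 trimethylated at lysine 4 (H3K4me3, a mark of active gene starts) in 7 lists, and binding of the homeobox factor PRRX1 in 3 lists.

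The cells were of 3 kinds. Mouse embryonic fibroblasts (MEF, strain C57BL/6) came from embryos of day 10 to 13. MMTV-CAF (strain FVB/NJ) were cancer-associated fibroblasts of mammary tumours of MMTV-PyMT mice, in which a viral promoter drives an oncogene in mammary epithelium. Wound-healing fibroblasts (strain C57BL/6, wound cells below) came from dorsal skin wounds of mice at day 10. Every culture, controls included, had been made immortal with HPV E6 and E7. WT is the control, made with a non-targeting guide (SgNS) where Cas9 was used. SG is Prrx1 deletion with Cas9 and a guide RNA against Prrx1, in each of the 3 kinds of cell. KI is a further MEF genotype, not spelled out in the labels and read here as the Prrx1tm1Jfm mutant (lacZ knock-in). Its samples carry the strain label C57BL/6, to which the methods say the line had been backcrossed, although the labels name it with the prefix 129S. KI and SG are both called deleted below, although KI is an insertion. PRRX1 was profiled in WT cells, and PRRX1 lists of deleted cells were not analysed here. Every group held 1 library, so each difference below compares 2 libraries, has no replicate check and carries no p-value.

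TGF-β ligands are secreted in a latent form and, once released, bind the type II receptor encoded by Tgfbr2, which phosphorylates the type I receptor encoded by Tgfbr1. The activated complex phosphorylates receptor-regulated Smad proteins, which enter the nucleus and act on target genes. In fibroblasts the pathway is known for driving matrix production and the contractile myofibroblast state, in wounds and around tumours.

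The lists differed in strength. H3K27ac lists held 29325 to 61603 summits with a median −log10 p of 11.9 (MEF KI) to 21.2 (MEF SG), and H3K4me3 lists held 13125 to 29166 regions. Over all genes marked in both lists, the median log2 ratio of summed H3K27ac, deleted over WT, was -1.68 for KI and 0.50 for SG in MEF, 0.24 for MMTV-CAF SG and 0.59 for wound SG. Ratios below are therefore also given relative to that median gene, and the sequencing depth behind the lists is unknown. Of 11 fibroblast marker genes, 8 to 11 held H3K27ac in a list, with a summed −log10 p of 596 to 2695. Dcn, Lum and Fap held neither mark in MEF KI and wound WT. Neither mark was held by Lum and Fap in wound SG, by Lum in MEF SG, and by Fap in both MMTV-CAF lists. Of 5 leukocyte markers 0 or 1 held it (summed 0 to 33.0), of 8 epithelial markers 3 to 5 (51.9 to 405), of 5 endothelial markers 2 to 4 (75.6 to 493) and of 4 smooth muscle and pericyte markers 2 (45.2 to 213). Epcam and Krt5 held neither mark in any list. Histone peak lists do not show whether Prrx1 itself was edited. The part of such markers in the results was not tested.

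Both marks were listed at nearly every member in every list. H3K4me3 covered an annotated transcription start site (TSS) of all 8 genes in all 7 lists, where 41.5% (MEF KI) to 55.3% (wound SG) of all genes had such a region. H3K27ac was listed in the window of all 8 genes in 6 lists and of 7 genes in MEF KI, where Tgfbr1 had none. Of the 22350 genes, 11698 (MEF KI) to 14375 (MMTV-CAF SG) had H3K27ac in their window. Ranked among all protein-coding genes, the members' median percentile was 84.9 for summed H3K27ac and 91.6 for H3K4me3 width in MEF WT, 85.3 and 87.4 in MMTV-CAF WT, and 82.2 and 92.9 in wound WT. A percentile here is a gene's middle rank among all genes, tied genes sharing a rank, and long windows hold more summits.

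**Figure D1:**
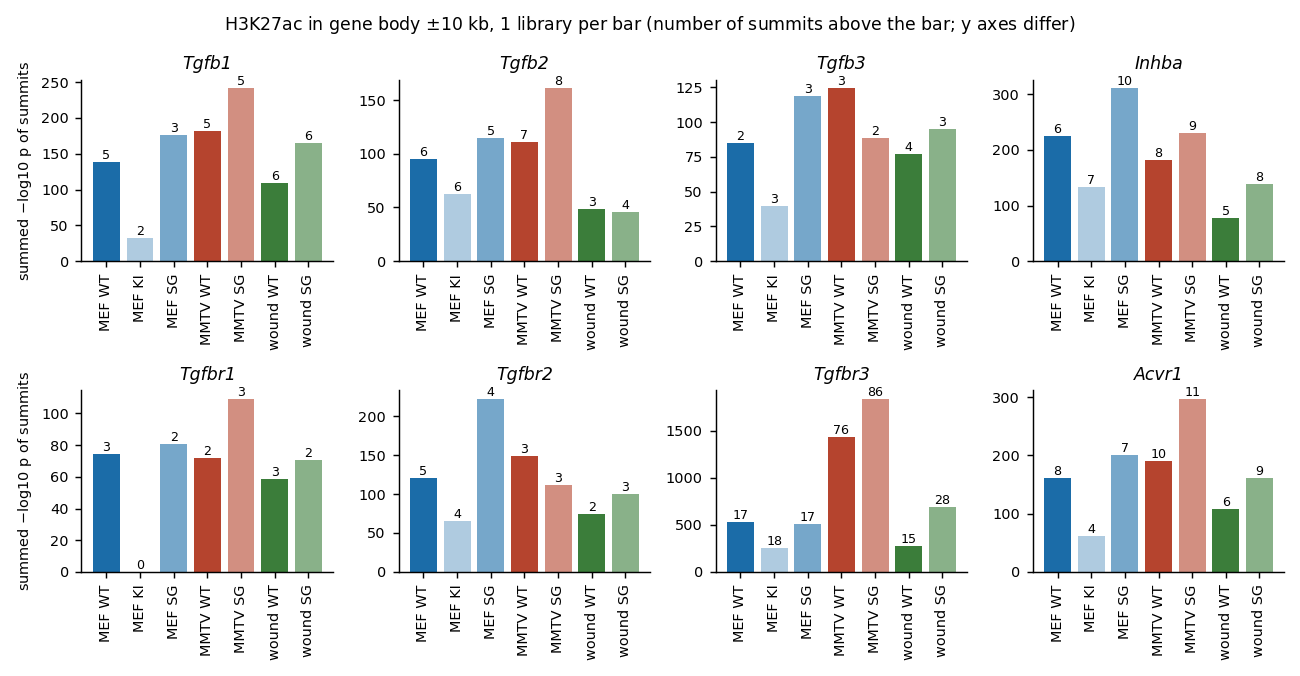
Summed −log10 p of the H3K27ac summits (vertical axis, linear, a different range for each gene) in the gene body with 10 kb on each side, for 8 genes in 7 libraries, 1 bar per library with the number of summits above it. Tgfbr3 reaches 1432 in MMTV-CAF WT and 1839 in MMTV-CAF SG, and the bar of Tgfbr1 in MEF KI is at 0.

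Tgfb1 encodes the ligand most studied in fibrosis. It lies on the plus strand (ENSMUSG00000002603.9, chr7:26472021-26490096), and its window also touches B9d2 and Ccdc97. Its summed H3K27ac was 139, 31.9 and 175 for MEF WT, KI and SG, 182 and 241 in the MMTV-CAF WT and SG lists, and 109 and 165 in wound WT and SG. The MEF KI value was the lowest, with a log2 ratio to WT of -0.44 relative to the median gene. The KI list lacked a summit at the gene's own start, an element of chr7:26472155-26472615 in the Tgfb1 untranslated region that was present in the other 6 lists with a −log10 p of 20.2 to 67.2. The 2 KI summits lay beside B9d2 and Ccdc97, whose starts were nearer to them than that of Tgfb1. The KI sum and its ratio thus rest on no summit whose nearest start was that of Tgfb1. H3K4me3 at the start was 3528, 2329 and 3082 bp wide in MEF WT, KI and SG with a fold over input of 6.08, 3.02 and 5.83. In MMTV-CAF WT and SG it was 3703 and 4073 bp (fold 13.3 and 16.7), and in wound WT and SG 3643 and 3928 bp (fold 8.30 and 11.1). Start-site H3K4me3 at Tgfb1 was thus listed in MEF KI without a start-site H3K27ac summit.

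One PRRX1 site stood in the Tgfb1 window in all 3 kinds of cell, and it was among the strongest sites of each list. Its summits were at position 26496907 in MEF (−log10 p 38.9, rank 44 of 3048), 26496912 in MMTV-CAF (87.5, rank 3 of 8000) and 26496915 in wound cells (45.6, rank 15 of 5698). The site belongs to the neighbour by position: it lies in an untranslated region of Ccdc97, 4.21 to 4.22 kb from the Ccdc97 start and 24.9 kb from the Tgfb1 start. H3K27ac lay 381, 400 and 435 bp away in the WT cells of the same kind, and an acetylated element stood on each side. The element chr7:26496392-26496587, the nearer one in MEF WT and MMTV-CAF WT, was listed in 5 lists with a −log10 p of 7.29 to 17.1 and not in MEF KI or MEF SG. The element on the other side, chr7:26497303-26497375, was listed in all 7, also within 500 bp of the PRRX1 summit of the same kind of cell. Its −log10 p was 23.7, 14.6 and 18.7 for MEF WT, KI and SG, 38.3 and 64.6 in the MMTV-CAF WT and SG lists, and 27.6 and 31.1 in wound WT and SG. The site's core is shown because it is the strongest PRRX1 site near any member, from mm9 (chr7:26496889-26496918, plus strand), with a TGANTCA word, the binding word of AP-1 factors, in capitals.
Tgfb1 window site: TGAGTCAcaggcagccatctggctttcatt

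No TAATTA, the palindromic word of paired-type homeodomains, stood within 100 bp of this site in any of the lists.

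Tgfb2 and Tgfb3 encode the other TGF-β ligands, and TGF-β2 needs betaglycan, the product of Tgfbr3, for efficient receptor binding. Tgfb2 (ENSMUSG00000039239.8, chr1:188447065-188529871, minus strand) had a summed H3K27ac of 95.2, 62.4 and 115 for MEF WT, KI and SG, 111 and 161 in the MMTV-CAF WT and SG lists, and 48.3 and 45.4 in wound WT and SG. Its KI to WT ratio of 0.656 was below 1 and yet 1.07 above the median gene on the log2 scale, so that its direction depends on the centring. The wound pair was the lowest, with a log2 ratio of -0.68 relative to the median gene. H3K4me3 was 3750, 3986 and 3425 bp wide in MEF WT, KI and SG, 4349 and 4250 bp in MMTV-CAF, and 4213 and 4171 bp in wound cells, with a fold of 4.13 (MEF KI) to 9.98 (MMTV-CAF SG). PRRX1 was listed at Tgfb2 only in wound cells, at 2 weak intronic summits, 188504331 (−log10 p 5.39) and 188526635 (4.50), each with 1 TAATTA within 100 bp.

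Tgfb3 (ENSMUSG00000021253.6, chr12:87397694-87419991, minus strand) had a summed H3K27ac of 85.0, 39.9 and 119 for MEF WT, KI and SG, 124 and 88.8 in the MMTV-CAF WT and SG lists, and 76.8 and 94.7 in wound WT and SG. The sum was lower in the deleted library in MMTV-CAF (log2 of -0.73 relative to the median gene) and in MEF KI, where it was still 0.59 above that gene. Most of the sum came from 2 elements present in all 7 lists, chr12:87420295-87420385 just upstream of the start, and chr12:87423616-87423965 in an intron of 1700019E19Rik. The latter lies 0.232 kb from the 1700019E19Rik start and 3.80 kb from that of Tgfb3. It gave more than the former in MEF SG only (56.4 against 51.2). Widths of H3K4me3 were 3424, 3334 and 3284 bp in MEF WT, KI and SG (fold 5.24, 4.09 and 5.85), 4311 and 4137 bp in MMTV-CAF (fold 9.04 and 11.3), and 3559 and 3006 bp in wound cells (fold 6.47 and 8.04). No PRRX1 summit was listed at Tgfb3 in any kind of cell.

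Inhba encodes the βA subunit of activin A, a ligand that signals through activin receptors to the same Smad proteins as TGF-β. It lies on the plus strand (ENSMUSG00000041324.7, chr13:16103684-16119044). In MEF it had some of the widest H3K4me3 regions at an annotated start: 9000, 7672 and 8752 bp in WT, KI and SG, with ranks of 21, 8 and 25 among all genes and a fold of 6.80, 6.00 and 7.55. These covered a start inside the gene. The separate region over the gene's 5′ end was 2313, 998 and 2043 bp wide. In MMTV-CAF the widest region at a start was 5355 bp in WT (fold 7.55) and 12005 bp in SG (fold 8.87), and in wound cells 2164 and 6973 bp (fold 4.58 and 6.32). Both differences went with a different splitting of neighbouring regions. MMTV-CAF WT held 3 regions with a summed width of 11805 bp, the first 488 bp from the second, and SG held 1 region of 12005 bp. Wound-healing WT likewise held 3 regions with a summed width of 8614 bp, and SG held 3 with 9549 bp. With regions joined across gaps of up to 1 kb, the widths were 12964 and 12005 bp in the MMTV-CAF WT and SG lists and 10010 and 10701 bp in wound WT and SG. The joined MEF widths were 11991, 7672 and 12699 bp in WT, KI and SG.

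Summed H3K27ac at Inhba was 226, 133 and 311 for MEF WT, KI and SG, 182 and 230 in the MMTV-CAF pair, and 78.3 and 139 in wound cells. Relative to the median gene the deleted libraries differed by 0.92, -0.04, 0.09 and 0.24 on the log2 scale. The kind of cell showed in the element used near the start. A summit at chr13:16103808-16103895 was listed in the 3 MEF lists only (69.9, 14.4 and 71.9 in WT, KI and SG), whereas one further into the gene, chr13:16104455-16104543, was listed in both MMTV-CAF and both wound lists (24.5 to 46.5) and in MEF KI (20.6). PRRX1 was listed at Inhba in wound cells alone, at intronic position 16105344 (−log10 p 4.50), 0.964 kb from a start. No H3K27ac lay within 500 bp of it in WT, with 889 bp to the nearest summit, and in SG the nearest was 85 bp away.

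**Figure D2:**
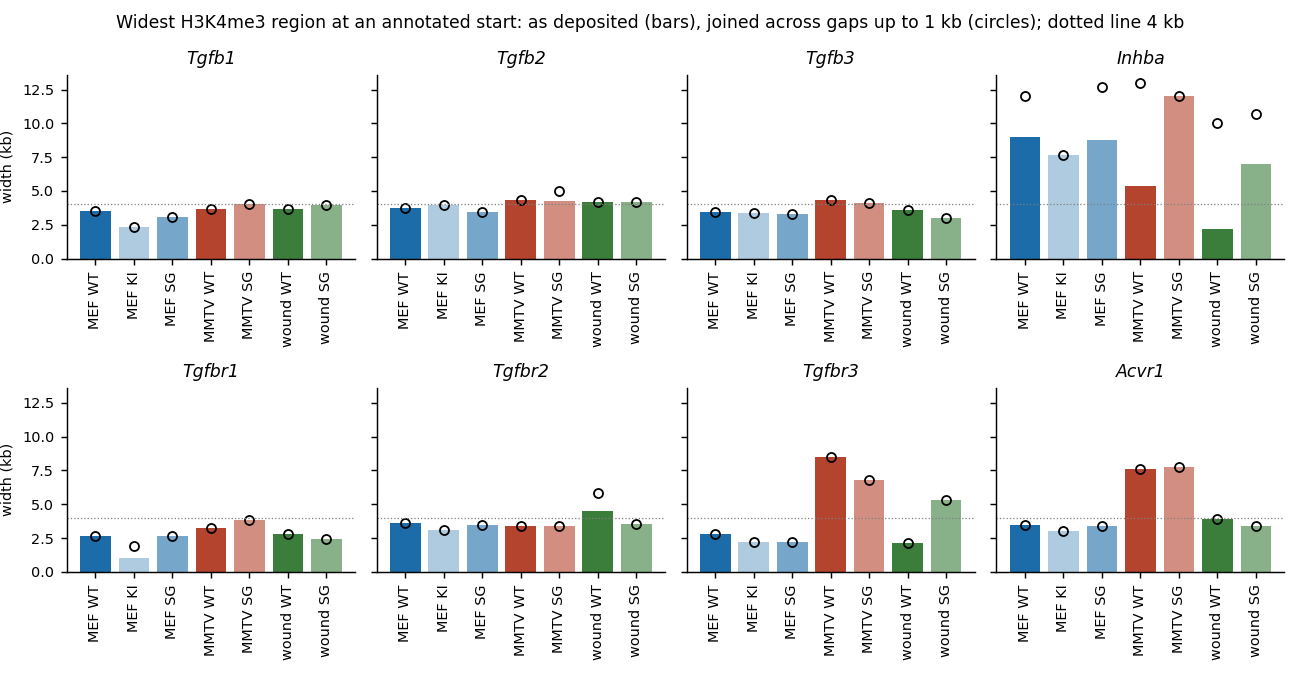
Width in kb (vertical axis, linear, shared) of the widest H3K4me3 region at an annotated start of each of 8 genes in 7 libraries, 1 bar per library as deposited and a circle after joining regions across gaps of up to 1 kb, with a dotted line at 4 kb. Bars and circles part mainly at Inhba (2164 bp against 10010 bp in wound WT), and Tgfbr3 in wound SG reaches 5326 bp by either count.

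Tgfbr1 encodes the type I receptor kinase of TGF-β. It lies on the plus strand (ENSMUSG00000007613.9, chr4:47366094-47427803). Its H3K27ac sum was 74.1, 0 and 80.8 for MEF WT, KI and SG, 72.2 and 109 in the MMTV-CAF WT and SG lists, and 58.8 and 70.9 in wound WT and SG. Both promoter elements, chr4:47365439-47365647 and chr4:47366241-47366739, were listed in the other 6 lists and absent from KI. H3K4me3 there was 2621 bp in MEF WT (fold 5.40), 991 bp in KI (fold 3.61) and 2620 bp in SG (fold 5.25). The KI start region was split, with a further 438 bp region 477 bp away, and the joined width was 1906 bp. In the other cells the width was 3225 and 3847 bp (MMTV-CAF WT and SG, fold 11.7 and 12.3) and 2822 and 2448 bp (wound WT and SG, fold 9.20 and 13.9). No acetylation of this promoter thus passed the threshold of the KI list, while its H3K4me3 did. A single PRRX1 summit was found in MMTV-CAF, at intergenic position 47437504 beyond the gene's end (−log10 p 5.18), 13295 bp from the nearest H3K27ac of those cells.

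Tgfbr2 encodes the type II receptor, the subunit that binds ligand first. It lies on the minus strand (ENSMUSG00000032440.5, chr9:115993415-116084383). Its H3K27ac sum was 121, 64.8 and 222 for MEF WT, KI and SG, 148 and 112 in the MMTV-CAF WT and SG lists, and 74.3 and 99.5 in wound WT and SG. In every list the largest share came from the start-site element chr9:116084066-116084634, whose summed −log10 p was 53.2, 33.8 and 133 for MEF WT, KI and SG, 109 and 87.4 in the MMTV-CAF pair, and 63.5 and 67.0 in wound cells. An intronic element, chr9:116061460-116063073, also present in all 7 lists, gave 51.8 in MEF WT and 31.0 in KI. Widths of H3K4me3 were 3611, 3074 and 3459 bp in MEF WT, KI and SG (fold 5.45, 3.34 and 6.96), 3381 and 3378 bp in MMTV-CAF (fold 13.4 and 13.96), and 4501 and 3521 bp in wound cells (fold 8.10 and 9.43). The gene's only PRRX1 summit, at intronic position 116006441 in MMTV-CAF (−log10 p 9.26), lay 55393 bp from the nearest H3K27ac summit of the same cells. It is shown because it held 4 copies of TAATTA, overlapping in pairs (capitals), more than any other site near a member (mm9, chr9:116006381-116006501, plus strand).
Tgfbr2 intron, MMTV-CAF site: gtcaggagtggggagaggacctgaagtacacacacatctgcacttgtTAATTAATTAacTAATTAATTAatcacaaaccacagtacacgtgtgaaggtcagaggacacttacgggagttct

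Tgfbr3 encodes betaglycan, a co-receptor that binds TGF-β and inhibin and presents ligand to the signalling receptors. It lies on the minus strand (ENSMUSG00000029287.8, chr5:107535589-107718648), with a body of 183 kb and no other protein-coding gene in its window. The MMTV-CAF lists stood apart from the others at this gene. Its window held 76 H3K27ac summits in MMTV-CAF WT and 86 in SG, against 17, 18 and 17 in MEF WT, KI and SG and 15 and 28 in wound WT and SG. The sums were 1432 and 1839 in MMTV-CAF, 529, 251 and 512 in MEF, and 271 and 690 in wound cells. Those sums ranked 4 and 5 among all genes in the MMTV-CAF WT and SG lists, 65, 68 and 134 in the MEF WT, KI and SG lists, and 182 and 17 in wound WT and SG. Per 100 kb the MMTV-CAF WT window held 37.4 summits, the 99.6th percentile of all genes, and the MEF WT window 8.37, the 81.9th.

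Most of the acetylated elements at Tgfbr3 were listed in MMTV-CAF and in no other kind of cell. Of 117 elements over all lists, 75 were listed in MMTV-CAF only, 3 in MEF only, 4 in wound cells only and 5 in all 7 lists. Over the elements of all gene windows, 27.5% were in MMTV-CAF only, 11.2% in MEF only, 8.82% in wound cells only and 12.5% in all 7 lists. Of the 76 MMTV-CAF WT summits, 10.5% (8) had a MEF WT summit within 500 bp (Wilson 95% interval 5.43 to 19.4%), against 53.4% of all MMTV-CAF WT summits in gene windows (53.0 to 53.9%). In wound WT the share was 11.8% (6.36 to 21.0%), against 45.3% (44.8 to 45.8%). The MEF WT and wound WT windows held only 17 and 15 summits, which limits how many of the 76 could match. Sought the other way, 8 of the 17 MEF WT summits (47.1%, interval 26.2 to 69.0%) had an MMTV-CAF WT summit, against 66.7% over all gene windows. Of the 15 wound WT summits 9 had one (interval 35.7 to 80.2%), against 68.4%. Both of these intervals cover the share over all gene windows. These and the later intervals cover counting error only. The strain, the tumour origin and the culture differ together between MMTV-CAF and the other cells, and their parts cannot be told apart.

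H3K4me3 at Tgfbr3 was likewise widest in MMTV-CAF. The region at the gene start was 2776, 2218 and 2179 bp wide in MEF WT, KI and SG (fold 6.55, 3.71 and 6.66), 8481 and 6792 bp in the MMTV-CAF WT and SG lists (fold 10.2 and 12.8), and 2168 and 5326 bp in wound WT and SG (fold 11.9 and 9.47). The window held 16 and 23 H3K4me3 regions in the MMTV-CAF WT and SG lists with a summed width of 22776 and 26485 bp, and 2 or 3 regions in each other list. Outside the start region their fold was at most 4.04 in MMTV-CAF WT and 5.54 in SG. The MMTV-CAF WT and SG lists also held the most H3K4me3 regions genome-wide, 27339 and 29166 against 13125 to 19641 in the others. Their median −log10 p was the lowest, at 7.51 and 8.72. The part of such weak regions in the count was not tested. In wound cells both marks were broader in SG than in WT, while the fold at the start was lower. The SG width was 2.46 times that of WT, and 28 H3K27ac summits stood against 15. Of these 28, 25.0% (7, interval 12.7 to 43.4%) had a WT summit within 500 bp, compared with 55.1% (54.6 to 55.6%) over all gene windows of that list. In the other direction 46.7% of the 15 WT summits (24.8 to 69.9%) had an SG summit, compared with 68.1% over all gene windows. The gain in summed H3K27ac, 0.76 above the median gene, was short of 2-fold.

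**Figure D3:**
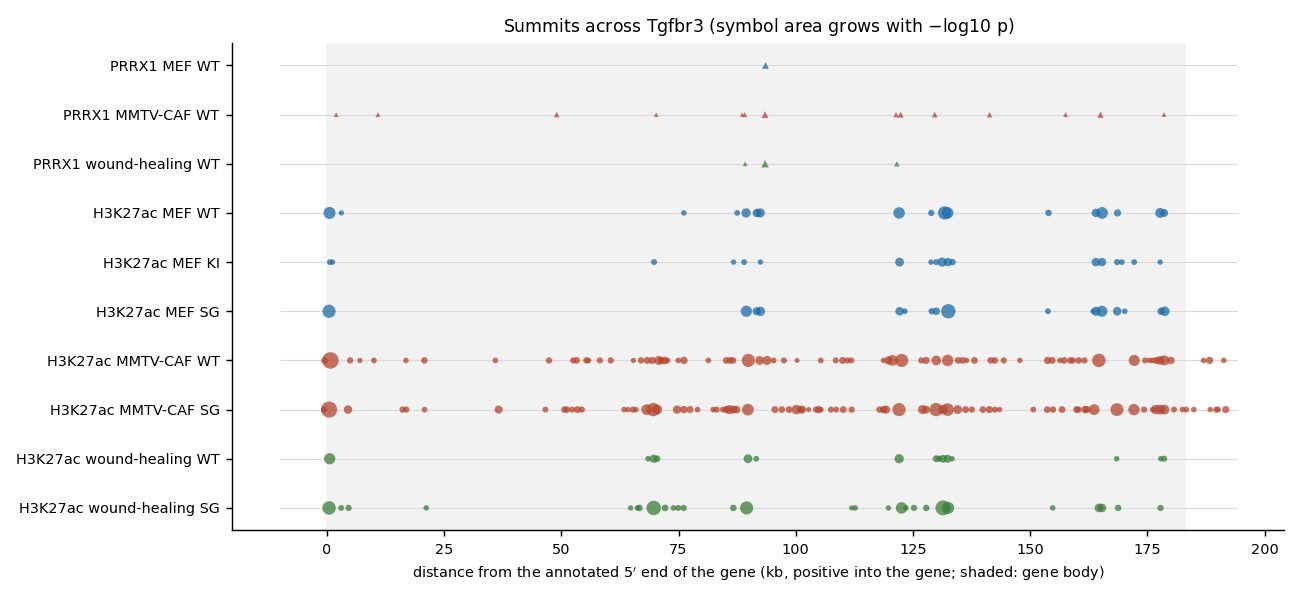
Each PRRX1 summit (triangles, 3 WT lists) and H3K27ac summit (circles, 7 lists) in the Tgfbr3 window by its distance in kb from the annotated 5′ end (horizontal axis, positive into the gene, gene body of 183 kb shaded), 1 row per list, with symbol area growing with −log10 p. The MMTV-CAF rows hold 76 and 86 H3K27ac summits along the whole gene, the other rows 15 to 28 in a few groups, and PRRX1 triangles of all 3 kinds of cell stand together near 93.4 kb.

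PRRX1 summits at Tgfbr3 numbered 14 in MMTV-CAF, a count exceeded by only 4 of the 22350 genes, with 1 in MEF and 3 in wound cells. The window is long, and per 100 kb the MMTV-CAF value of 6.89 was at the 98.6th percentile. One intronic site was common to the 3 kinds of cell, with summits at 107625195 in MEF (−log10 p 14.5, rank 546), 107625228 in MMTV-CAF (15.2, rank 600) and 107625211 in wound cells (17.8, rank 211). It was the strongest PRRX1 summit of Tgfbr3 in each list, 3.81 to 3.84 kb from an annotated start within the gene. H3K27ac lay 1040, 429 and 1873 bp away in the WT cells, so within 500 bp only in MMTV-CAF, and 2124 bp away in MMTV-CAF SG. Neither TAATTA nor the AP-1 word stood within 100 bp of these 3 summits. This common site (chr5:107625155-107625268) is shown first, with the stretch between the outer summits in capitals. After it stand MMTV-CAF sites with a TGANTCA word (chr5:107553611-107553731 and chr5:107596229-107596349) and with a TAATTA word (chr5:107561066-107561186), the words in capitals. All are from mm9, plus strand, and lie in introns.
Tgfbr3 common site: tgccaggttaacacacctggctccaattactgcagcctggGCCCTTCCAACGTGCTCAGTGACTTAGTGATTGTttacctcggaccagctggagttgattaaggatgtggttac
Tgfbr3 MMTV-CAF site with TGATTCA: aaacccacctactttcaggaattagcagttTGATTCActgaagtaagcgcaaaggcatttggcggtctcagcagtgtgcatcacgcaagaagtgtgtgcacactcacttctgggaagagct
Tgfbr3 MMTV-CAF site with TGAGTCA: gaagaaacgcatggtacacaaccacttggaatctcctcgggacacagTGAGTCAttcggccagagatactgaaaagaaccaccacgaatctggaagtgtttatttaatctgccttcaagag
Tgfbr3 MMTV-CAF site with TAATTA: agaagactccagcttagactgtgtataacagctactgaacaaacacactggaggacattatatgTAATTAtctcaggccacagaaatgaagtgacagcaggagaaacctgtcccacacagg

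Of the 14 MMTV-CAF PRRX1 summits at Tgfbr3, 7 had H3K27ac within 500 bp in WT (50.0%, interval 26.8 to 73.2%) and 5 had it in SG (35.7%, 16.3 to 61.2%). Both shares are of the same 14 sites, so the intervals do not compare them. The sites at 107553671, 107561126 and 107625228 had H3K27ac 341, 275 and 429 bp away in WT and 1348, 751 and 2124 bp away in SG. The site at 107648428 went the other way, from 569 to 185 bp. Over all 8000 PRRX1 summits of the list the shares were 45.4% and 42.3%. Sites with the same word differed among themselves in the distance to H3K27ac of MMTV-CAF. Of the 3 sites with TAATTA, the one printed had H3K27ac 275 bp away in WT and 751 bp away in SG, and the others, at 107577328 and 107589022, had it 228 and 328 bp away in WT and 26 and 309 bp away in SG. Of the 3 sites with TGANTCA, the one printed with TGAGTCA had H3K27ac 224 bp away in WT and 344 bp away in SG. The one with TGATTCA had it 341 and 1348 bp away, and a further one at 107629530 had it 758 and 660 bp away.

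Acvr1 encodes a type I receptor (ALK2) that serves BMP ligands and can bind activin. It lies on the minus strand (ENSMUSG00000026836.9, chr2:58241055-58419568), with Gm17409 and Upp2 in its window. The summed H3K27ac was 161, 61.6 and 200 for MEF WT, KI and SG, 190 and 297 in the MMTV-CAF WT and SG lists, and 108 and 161 in wound WT and SG. Relative to the median gene the deleted libraries differed by 0.29, -0.18, 0.40 and -0.02. Its H3K4me3 was wider in MMTV-CAF than elsewhere: 7603 and 7733 bp in WT and SG (fold 8.31 and 8.22), against 3482, 3052 and 3417 bp in MEF WT, KI and SG (fold 5.81, 4.25 and 6.44), and 3946 and 3367 bp in wound WT and SG (fold 7.41 and 9.57). PRRX1 was listed in MMTV-CAF alone, at 3 intronic summits, 58336939, 58374283 and 58405336, with a −log10 p of 5.18, 5.91 and 5.80. H3K27ac of those cells lay 435 bp from the first and 11375 and 4541 bp from the others.

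The members were then read against all genes in each deleted and WT pair. A gene was called for H3K27ac when its summed score differed by 2-fold relative to the median gene, and for H3K4me3 width when that differed by 1.5-fold. A gene listed in only 1 list of the pair was also called, for either mark. In MEF KI, 1 of 8 members was lower for H3K27ac (Tgfbr1) and 1 higher (Tgfb2), where 26.2% and 11.0% of all genes were called lower and higher. With no centring 5 were lower (Tgfb1, Tgfb3, Tgfbr1, Tgfbr3 and Acvr1) and 0 higher, where 82.2% and 2.64% of all genes were. In MEF SG no member was called, against 6.98% lower and 8.64% higher among all genes. None was called in MMTV-CAF SG (7.02% and 12.7%) or in wound SG (4.96% and 14.1%), where Tgfbr3 was called higher with no centring, as were 29.0% of all genes. The members' median relative log2 ratio was 0.61 and -0.17 in KI and SG MEF, 0.14 in MMTV-CAF SG and -0.09 in wound SG, 7 members having a value in KI and 8 in the others. The raw medians were -1.07, 0.32, 0.39 and 0.50. With 8 members, a count of 0 or 1 lies near these backgrounds. KI and SG MEF were set against the same WT list.

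For H3K4me3 width, 1 member was lower in MEF KI (Tgfbr1, relative log2 of -1.08) and 0 higher, where 31.1% and 1.88% of all genes were called. Of the 3715 genes called lower, 2680 had a region in WT only, whereas Tgfbr1 had one in both. In MEF SG none was called (7.59% lower and 1.65% higher among all genes). In MMTV-CAF SG 1 was higher (Inhba, 1.22) and 0 lower, against 8.81% and 7.09% of all genes, and in wound SG 2 were higher (Inhba, 1.51, and Tgfbr3, 1.12) and 0 lower, against 9.04% and 5.43%. When regions were joined across gaps of up to 1 kb, the relative log2 of Inhba was -0.04 in MMTV-CAF and -0.09 in wound cells and that of Tgfbr1 in KI was -0.15, while Tgfbr3 in wound SG stayed called.

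**Figure D4:**
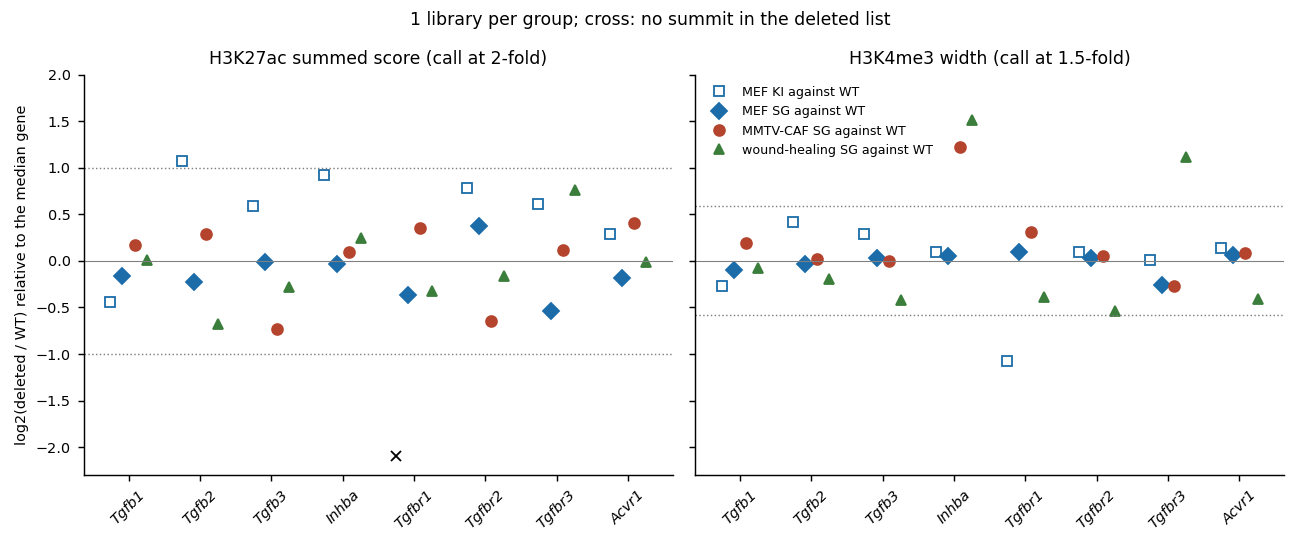
Log2 ratio of the deleted over the WT library relative to the median gene (vertical axis) for summed H3K27ac (left) and H3K4me3 width (right) at 8 genes, 1 symbol per pair of libraries, with dotted lines at the folds used for a call and a cross for Tgfbr1 in MEF KI, which had no summit. For H3K27ac only Tgfb2 in MEF KI passes a line (1.07), and for width Inhba (1.22 and 1.51), Tgfbr3 in wound SG (1.12) and Tgfbr1 in MEF KI (-1.08) do.

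Single WT summits at the members were sought again in the deleted lists. In MEF KI 53.8% of 52 summits had a summit within 500 bp (interval 40.5 to 66.7%), in SG MEF 67.3% of 52 (53.8 to 78.5%), in MMTV-CAF SG 65.8% of 114 (56.7 to 73.9%) and in wound SG 68.2% of 44 (53.4 to 80.0%). Over all gene windows the shares were 47.4%, 71.4%, 65.9% and 68.1%, each within the members' interval. Between WT cells, 65.4% of the 52 MEF WT summits had a match in MMTV-CAF WT and 53.8% in wound WT, against 66.7% and 58.2% over all gene windows. In the other direction 29.8% of the 114 MMTV-CAF WT summits had a match in MEF WT (interval 22.2 to 38.8%), against 53.4% over all. Of the 114, 76 were those of Tgfbr3, of which 10.5% had a match, where MEF WT listed only 17 summits. At each of the other members the share was 50.0 to 100%. Of 185 acetylated elements at the members in all, 14 were present in all 7 lists (7.57%, against 12.5% over all gene windows), 53 in 1 or more of the 4 deleted lists only (28.6%, against 30.4%) and 33 in 1 or more of the 3 WT lists only (17.8%, against 15.3%). Tgfbr3 alone held 117 of the 185, and of these 117 only 5 were in all 7 lists.

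PRRX1 was listed in the windows of 2 of 8 members in MEF (Tgfb1 and Tgfbr3), where 7.04% of all genes had a summit. It was listed at 5 in MMTV-CAF (Tgfb1, Tgfbr1, Tgfbr2, Tgfbr3 and Acvr1; 22.1% of all genes) and at 4 in wound cells (Tgfb1, Tgfb2, Tgfbr3 and Inhba; 16.8%). Among genes with windows over 100 kb, 22.3%, 39.8% and 31.8% had one in MEF, MMTV-CAF and wound cells, and of the 4 members of that length (Tgfb2, Tgfbr2, Tgfbr3 and Acvr1) 1, 3 and 2 did. In all 2, 20 and 7 summits lay in member windows, of which 1, 9 and 3 had H3K27ac within 500 bp in the same WT cells, as did 20.5%, 45.4% and 33.2% of all summits of the lists. TAATTA, sought like the next words on both strands within 100 bp, stood at 0 of 2, 6 of 20 and 2 of 7 member sites, against 69.1%, 35.5% and 41.9% of all summits of the lists and 6.91%, 5.84% and 6.16% of positions 2 kb away. TGANTCA stood at 1, 4 and 2 of them, against 12.9%, 18.3% and 13.0% of all summits and 6.51%, 5.86% and 6.25% away. CAGAC, a word bound by Smad proteins, stood at 1, 8 and 1, against 35.3%, 38.5% and 35.7% of all summits and 33.7%, 36.9% and 36.3% away, so that it was nearly as frequent nearby as at summits.

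Clusters of H3K27ac summits stitched within 12.5 kb were ranked by summed −log10 p, and those past the slope of 1 on the curve of scaled score against scaled rank were called super-enhancers, an approximation without reads. In MEF WT 2 members had one in the window (Inhba, rank 510, and Tgfbr3, rank 789), against 10.4% of all genes. In MEF KI the same 2 did (ranks 223 and 333; 4.06%), and in MEF SG Inhba alone (rank 435; 11.5%), with Tgfbr3 at rank 1550 of 17687 clusters. In MMTV-CAF WT 1 member had one, Tgfbr3 (10.9% of all genes), whose cluster of 77 summits over 178 kb, reaching past the gene's 3′ end, was the fourth of its list. In MMTV-CAF SG Tgfbr3 (rank 2) and Acvr1 (rank 869) had one (10.5%). None did in wound WT (7.40%), where Tgfbr3 ranked 1104, and Tgfbr3 did in wound SG (rank 308; 11.9%). H3K4me3 regions over 4 kb at a start were held by 1 member in each MEF list, by 5 and 6 in the MMTV-CAF WT and SG lists, and by 2 and 3 in wound WT and SG, where 5.02%, 1.49% and 3.60% (MEF WT, KI and SG), 15.2% and 12.8%, and 4.83% and 8.59% of all genes held one.

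A list of 50 other genes of the pathway was read in the same way, for H3K27ac. In MEF KI 10 were called lower and 5 higher of 46 listed, where 26.2% and 11.0% of all genes were. Among genes listed in both lists the largest difference was at Bmpr1b, a type I BMP receptor, with 12 summits in WT and 1 in KI (summed 252 and 6.02, relative log2 of -3.71). Lrrc32, which tethers latent TGF-β at the cell surface, was 1.74 higher there, with a summed 29.2 and 30.4, and Itgb8, an integrin gene of TGF-β activation, 1.70 higher, with 36.8 and 37.4. In MEF SG 6 were lower and 3 higher of 48 (6.98% and 8.64% of all genes). The largest differences were at Lrrc32, with 2 summits in WT and 1 in SG (29.2 and 10.2, -2.02), and the matrix gene Postn, 2 and 1 (31.6 and 11.2, -1.99). Thbs1, an activator of latent TGF-β, followed with 5 and 2 (220 and 93.3, -1.73). In MMTV-CAF SG 5 were lower and 3 higher of 47 (7.02% and 12.7%). Postn had 3 summits in WT and 1 in SG (69.9 and 8.72, -3.25), the activin antagonist Fst 2 and 5 (21.4 and 118, 2.22), and the smooth muscle actin gene Acta2 4 and 2 (103 and 44.1, -1.46). In wound SG 4 were lower and 3 higher of 47 (4.96% and 14.1%). Lrrc32 had 4 summits in WT and 1 in SG (34.1 and 11.4, -2.16), and Acta2 3 and 1 (71.3 and 27.4, -1.97). The fibrillin gene Fbn1 had 25 and 10 (312 and 146, -1.68). Genes listed in only 1 list of a pair have no ratio and were not ranked. Among them the largest sums were those of Fstl3 (71.2 in MEF WT, none in KI), Acvr2b (79.8 in MMTV-CAF SG, none in WT), Tagln (60.6 in MMTV-CAF WT, none in SG), Ltbp4 (60.3 in wound SG, none in WT) and Fst (53.6 in wound SG, none in WT), named after their values were seen. For H3K4me3 width, 21 were lower and 1 higher of 42 in MEF of KI genotype (31.1% and 1.88% of all genes) and 7 and 1 of 42 in those of SG (7.59% and 1.65%). In MMTV-CAF SG 8 and 3 of 47 were (7.09% and 8.81%), and in wound SG 6 and 7 of 45 (5.43% and 9.04%). PRRX1 was listed at 10, 25 and 21 of the 50 in MEF, MMTV-CAF and wound cells, where 7.04%, 22.1% and 16.8% of all genes had a summit. At 8 of them (Smad6, Smurf2, Ltbp1, Itgav, Itgb5, Fbn1, Acvr2a and Col1a1) it was listed in all 3, as at 2.95% of all genes, and among the members at Tgfb1 and Tgfbr3, with no matching on window length.

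The genes with the most similar pattern over the 14 percentiles of summed H3K27ac and H3K4me3 width (7 lists each) were found by the root mean square difference. They were Cnot1 for Tgfb1 (3.34 percentile points), 4732440D04Rik for Tgfb2 (4.57), Nudt3 for Tgfb3 (3.73), Mapk6 for Inhba (4.29), Spry4 for Tgfbr1 (6.80), Akirin2 for Tgfbr2 (5.12), Itgb5 for Tgfbr3 (4.24) and Pcgf2 for Acvr1 (2.99).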

How the data were processed

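Peak lists of 17 ChIP-seq libraries (7 H3K27ac, 7 H3K4me3, 3 PRRX1) were analysed, 1 per group, with groups taken from the sample titles. Per the methods, the authors used Trimmomatic for trimming, Bowtie with mm9 for alignment, Picard to drop duplicates and MACS2 with input for peaks. In the H3K27ac and PRRX1 files as deposited, each peak is a single-base summit carrying a −log10 p-value. The PRRX1 ChIP was done in duplicate with IgG as a control. Whether its lists pool the duplicates is not stated, its cutoff is lower than the one given for sharp peaks (lowest value 3.00), and the MMTV-CAF list holds exactly 8000 summits. In the deposited H3K4me3 files each broad region has an integer score, a fold enrichment ratio to input, and p and q as −log10. These values grow with depth, which the lists do not give.

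Genes came from GENCODE vM1 on NCBIM37, the same build, which also gave the sequences (0 PRRX1 summits lay beyond a chromosome end). Per gene, −log10 p values were summed over H3K27ac summits in the body with 10 kb each side, and the widest H3K4me3 region over an annotated start was taken. Log2 ratios were centred on the median protein-coding gene. Summits of all lists within 500 bp were chained into elements. Shares have Wilson 95% intervals. The measures were tested on simulated data. Alternatives are given in the closing section. No pair has replicates, so no test was run. The members, lists and thresholds were chosen with earlier results of these data known. All 8 members are named, and of the 50 further genes the 3 with the largest H3K27ac ratio in each pair among those listed in both lists and those with PRRX1 in all 3 kinds of cell. The 5 genes listed in only 1 list of a pair (Fstl3, Acvr2b, Tagln, Ltbp4 and Fst) were named after their values were seen. Python 3.11.15, numpy 2.4.6, scipy 1.17.1 and matplotlib 3.10.9 were used.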

Additional observations from a re-analysis of the deposited data

Results flagged for a closer look

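At 3 genes the summed H3K27ac moved by over 1.5-fold relative to the median gene in opposite directions in 2 pairs of libraries that differ in the kind of cell and in the Prrx1 genotype, KI against SG. Tgfb2 had a relative log2 of 1.07 in MEF KI and -0.676 in wound SG. Tgfb3 had 0.590 in MEF KI and -0.726 in MMTV-CAF SG. Tgfbr2 had 0.777 in MEF KI and -0.651 in MMTV-CAF SG. In MEF SG, the pair that shares the WT list with KI, the values were -0.22, -0.01 and 0.38. The differences were not tested, since each group has 1 library, and the kind of cell and the genotype cannot be told apart in them. The higher values are all from MEF KI, whose list is the weakest, and all 3 raw ratios of KI over WT were below 1 (0.656, 0.469 and 0.535).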

How the results depend on the processing

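No paired analysis was possible because each group has 1 library and no test was run. Of 109 repeats of the main results under another setting, 74 kept their value within 1.5 times (counts) or within the interval of the main share, and 35 did not. For H3K27ac, 2 members were called in MEF KI, and 5 with no centring, 1 after division by the list total, 6 at a fold of 1.5, 4 over the gene body only and 1 with summits of at least 10. The share of all genes called lower and higher moved with these settings, from 26.2% and 11.0% to 82.2% and 2.64% with no centring. It was 35.5% and 20.7% at a fold of 1.5 and 30.5% and 13.8% over the body. After division by the list total it was 29.2% and 8.63%, and with summits of at least 10 it was 36.6% and 9.48%. From 0 in the main setting, MEF SG gave 1 higher (body only; 11.0% of all genes higher). MMTV-CAF SG gave 2 lower (fold of 1.5; 15.2% lower), 1 lower (body only; 10.9%) and 1 higher (flanks of 50 kb; 9.08%). Wound SG gave 1 higher (no centring; 29.0%), 1 lower and 1 higher, so 2 (fold of 1.5; 13.7% and 22.5%), 1 lower (body only; 11.0%) and 1 lower (equal-size lists; 6.08%). The relative log2 of Tgfb2 in MEF KI turned from 1.07 to -0.61 with no centring. For H3K4me3 width, MEF KI went from 1 lower to 2 (no centring; 41.7% of all genes lower), 2 (gene start only; 37.8%) and 0 (joined regions; 26.8%), MMTV-CAF SG from 1 higher to 0 (joined regions; 8.88% higher) and wound SG from 2 higher to 1 (gene start only; 10.1%). Inhba turned to -0.13 in wound SG with the gene start only, and with joined regions to -0.087 there and to -0.043 in MMTV-CAF SG. In wound SG joined regions left 2 calls, 1 lower (Tgfbr2; 5.05% of all genes) and 1 higher (Tgfbr3; 9.06%). Joining regions, and leaving out Tgfbr3 from the retained shares, were chosen after seeing the data. The share of retained summits moved in MEF KI from 53.8% to 69.2% (within 1 kb) and 74.2% (equal-size lists), in MEF SG from 67.3% to 78.8% (1 kb), 82.5% (WT summits of at least 10) and 90.3% (equal-size lists), in MMTV-CAF SG from 65.8% to 51.8% (250 bp) and 77.2% (1 kb), and in wound SG from 68.2% to 88.6% (1 kb). The shares over all gene windows under these settings are not given here, so these moves cannot be read against them. Members with PRRX1 fell from 2 to 1 in MEF (body only, and nearest start only), from 5 to 2 (−log10 p of at least 10) and 3 (body only) in MMTV-CAF, and from 4 to 2 in wound cells (at least 10). Members with a super-enhancer went from 2 to 0 in MEF WT and from 2 to 1 in MMTV-CAF SG among the 500 top clusters, and from 1 to 2 both in wound SG and in MMTV-CAF WT with stitching within 5 kb. The shares of all genes with a PRRX1 summit or a super-enhancer under these settings are not given here. The moves in these counts can therefore not be read against all genes. The cause of these shifts was not tested beyond what each setting itself changes. Depth is unknown, so a missing summit says only that none passed the cutoff.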

Other observations

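The 50 further pathway genes were also read by role, as medians of the log2 ratio of summed H3K27ac relative to the median gene over the genes listed in both libraries. The 12 genes of latency and activation had a median of 0.73 in MEF KI and of -0.55 in SG MEF, -0.01 in MMTV-CAF SG and -0.59 in wound SG. Of them 1, 3, 0 and 3 were called lower and 3, 0, 0 and 1 higher in the same order. Of all genes 26.2%, 6.98%, 7.02% and 4.96% were lower and 11.0%, 8.64%, 12.7% and 14.1% higher. The 8 target genes had 0.36, -0.42, -0.43 and -0.19 in the same order, with 1, 2, 3 and 1 called lower and 1, 0, 0 and 0 higher. The 9 feedback inhibitors had 0.36, -0.03, 0.02 and -0.41, with 1, 0, 0 and 0 lower and 1, 1, 0 and 0 higher. The 9 other receptors, of which 6, 8, 7 and 7 were listed, had -0.17, -0.44, -0.63 and 0.27, with 2, 0, 2 and 0 lower and 0, 2, 1 and 1 higher. The 6 signal transducers had -0.22, 0.01, 0.01 and -0.33, with 2, 1, 0 and 0 lower and 0 higher. The 6 genes of activin subunits and antagonists, of which 5 were listed in each pair, had -0.26, 0.07, -0.03 and -0.34. Of these 3, 0, 0 and 0 were lower and 0, 0, 2 and 1 higher. Their MEF KI median rests on Inha (-0.19) and Fst (-0.33) alone. For H3K4me3 width, 4 of 7 listed targets were called lower in KI and 1 of 7 in SG among MEF, 3 of 8 in MMTV-CAF SG and 3 of 6 in wound SG, with 0 higher in each pair, where 31.1%, 7.59%, 7.09% and 5.43% of all genes were lower. Among latency and activation genes 4 of 9, 1 of 9, 1 of 12 and 1 of 11 were lower and 1, 1, 2 and 5 higher in the same order, where 1.88%, 1.65%, 8.81% and 9.04% of all genes were higher. Lower calls stood at 4, 3, 1 and 1 of 9 feedback inhibitors, 4 of 8, 2 of 8, 2 of 8 and 1 of 9 other receptors, 3, 0, 1 and 0 of 6 signal transducers, and 2 of 3, 0 of 3, 0 of 4 and 0 of 4 activin subunits and antagonists. Higher calls in these 4 roles were 0 in both MEF pairs, 1 in MMTV-CAF SG and 2 in wound SG.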
